A study of Mus musculus with 4 samples.

Results

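Interferon-stimulated genes are switched on when a cell receives type I, II or III interferon, and the 36 described here are a fixed list of such genes that leaves out the p200 family. They were taken by symbol from the deposited gene tables, in which all 36 were found among 17550 genes listed in any library, and none was under 1 RPKM (read number scaled to gene length and to the library's total of reads) in every library. The RNA came from left ventricles of C57BL/6 mice aged 8 weeks in which a myocardial infarction had been induced 3 days earlier. Wild-type mice and mice labelled Neil3-/- each gave 1 library of non-infarcted and 1 library of infarcted tissue, so that every group is 1 library. All mice had been infarcted, so the non-infarcted tissue also came from mice with an infarction, and no group is a sham or uninjured heart. How the knockout was made, and whether 1 mouse or several went into a library, is not stated in the labels.

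The libraries of one genotype label are called a pair here, and the values of a pair are always given with non-infarcted tissue first and infarcted tissue second. The totals of uniquely assigned reads were 14.9 M then 17.3 M for the wild-type pair, and 14.3 M then 18.2 M for the pair labelled Neil3-/-. Neil3, the deleted DNA glycosylase, did not check the labels: it was at 1.83 then 3.95 RPKM in the wild-type pair and at 12.0 then 18.5 RPKM in the pair labelled Neil3-/-, which is therefore named by its label throughout. Cardiomyocyte markers were present in every library, with Myh6 between 855 and 4231 RPKM. With single libraries there is no replicate check of any difference, and no p-value was computed. Intervals in parentheses are exact Clopper-Pearson 95% intervals of the read share of both libraries and cover counting error only.

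In type I interferon signalling, the receptor chains Ifnar1 and Ifnar2 work through the kinases Jak1 and Tyk2. A complex that holds Stat2 and Irf9 then binds the interferon-stimulated response element (ISRE) before many of the genes described here, while interferon gamma acts at gamma-activated sites (GAS). The induced genes code for sensors of foreign or misplaced nucleic acid, for proteins that block viral replication, for the ubiquitin-like modifier Isg15 and its enzymes, for GTPases that act on intracellular vacuoles, and for chemokines. After infarction, macrophages that take up DNA of dying cells are a known source of this response.

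The promoter windows of the members were searched for the cores of both elements. The RefSeq table used (build GRCm38.p6, from 250 bases before to 50 bases after a gene's start) matched 25 of the 36 members. The ISRE core was searched as GAAA, any 2 bases and GAAA again, and the GAS core as TTCNNNGAA, each on both strands. At least 1 ISRE core lay in a window of 15 of the 25 members (60%), against 3.99% of all 27025 genes in the table. At least 1 GAS core lay in a window of 6 of the 25 (24%), against 9.55% of all genes. A match describes letters and is not a bound site. Printed here are the 6 members with the largest infarct or genotype ratio that had a match before their start. Iigp1, Zbp1, Dhx58 and Mx1 were among the members without a window and could not be searched. Each stretch is on the gene's own strand, 5′ to 3′, with the matches in capitals; in Bst2 the GAS core overlaps the first of its ISRE cores.
Bst2, chr8:71537577-71537618, minus strand: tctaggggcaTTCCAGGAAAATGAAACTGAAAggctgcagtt
Oas1a, chr5:120907526-120907633, minus strand: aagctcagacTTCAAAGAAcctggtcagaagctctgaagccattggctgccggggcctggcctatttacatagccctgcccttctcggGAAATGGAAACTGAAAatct
Oas3, chr5:120777715-120777744, minus strand: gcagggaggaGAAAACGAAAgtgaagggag
Cxcl10, chr5:92349083-92349112, minus strand: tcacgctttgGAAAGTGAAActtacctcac
Isg15, chr4:156200865-156200906, minus strand: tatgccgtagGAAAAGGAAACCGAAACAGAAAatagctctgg
Irf1, chr11:53769914-53769942, plus strand: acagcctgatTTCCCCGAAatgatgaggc
Irf1, which is induced by interferon gamma, held a GAS core and no ISRE core in either of its windows. Isg15 held 3 overlapping ISRE cores, and Bst2 and Oas1a held both kinds of core.

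Levels of the members lay slightly below those of other expressed genes. Their median was 7.70 then 9.18 RPKM in the wild-type pair, beside 9.44 then 10.8 RPKM for all genes of 1 RPKM or above. For the pair labelled Neil3-/- it was 7.58 then 8.94 RPKM, beside 9.48 then 11.0 RPKM. By reads per length, Ifi27l2a stood highest, a small interferon-induced membrane protein. Its level was 45.5 then 58.1 RPKM in the wild-type pair and 46.1 then 50.1 RPKM in the pair labelled Neil3-/-. Bst2, Irf7, Oasl2 and Irf9 followed by mean RPKM. Mx2 and Cxcl9 were the least expressed, between 1.15 and 1.61 RPKM over the 4 libraries.

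**Figure D1:**
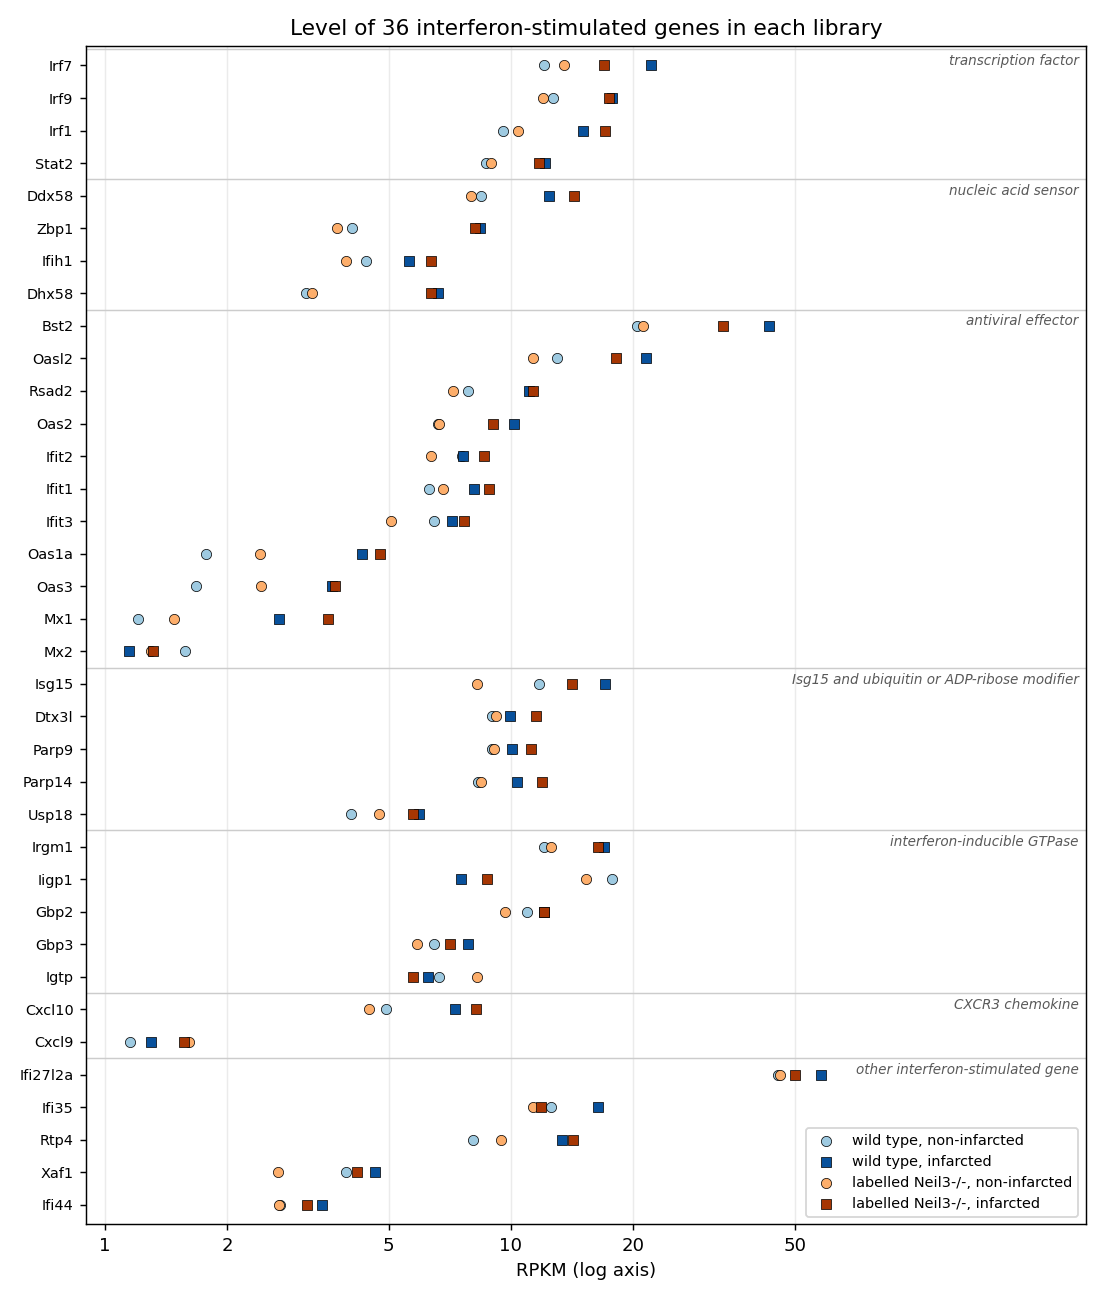
RPKM (log axis) of each of the 36 interferon-stimulated genes in the 4 libraries, grouped by role; circles are non-infarcted and squares infarcted tissue, blue shades wild type and orange shades the pair labelled Neil3-/-. Ifi27l2a lies at 45.5 to 58.1 RPKM at the high end, and Iigp1 is a member whose infarcted libraries both lie well below its non-infarcted ones.

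The first comparison was infarcted against non-infarcted tissue within each pair. Most members had a slightly to moderately higher level in the infarct, Iigp1 had a lower one in both pairs, and Zbp1, Dhx58, Mx1, Oas1a and Bst2 were among those at least 1.5-fold higher in both. On the log2 scale of (RPKM + 1), 33 of 36 members lay above 0 in wild type and 33 of 36 in the pair labelled Neil3-/-, 32 of them in both. Most other genes did so too: between 32% and 33% of all genes lay below 0 in wild type, and between 33% and 34% in the pair labelled Neil3-/-. The median log2 ratio of the members was 0.44 in wild type, beside 0.21 for all genes compared, and 0.42 in the pair labelled Neil3-/-, beside 0.24.

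At 2-fold on this scale, 1 member (Bst2) was higher and 1 (Iigp1) lower in wild type, beside 6.21% and 3.6% of all genes; in the pair labelled Neil3-/- no member passed in either direction, beside 8.2% and 6.07%. The added 1 RPKM lowers the ratios of weakly expressed genes: with 0.1 RPKM in its place, 6 members were 2-fold higher in wild type and 2 in the pair labelled Neil3-/-, beside 10.1% and 12.6% of all genes. At 1.5-fold, 10 members (27.8%) were higher and 1 lower in wild type, beside 21.6% and 9.56% of all genes. In the pair labelled Neil3-/-, 11 members (30.6%) were higher and 1 lower, beside 25% and 12.4%. The share of higher members is near the background. The middle of the list lay higher: the lower and upper quartiles of the members were 0.18 and 0.62 in wild type, beside -0.13 and 0.53 for all genes, and 0.26 and 0.63 in the pair labelled Neil3-/-, beside -0.17 and 0.59. At 1.5-fold, 7 of the 36 members were higher in both genotypes, beside 18.3% of all genes, which is near the share of the members. They were Irf1, Dhx58, Zbp1, Mx1, Oas1a, Oasl2 and Bst2.

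These counts depend on how the libraries are scaled. TMM scaling lowered the median log2 ratio of all genes by 0.20 in wild type and by 0.21 in the pair labelled Neil3-/-, to 0.01 and 0.03, and that of the members to 0.24 and 0.21. It also turned the split of all genes at 2-fold, to 3.64% higher and 6.15% lower in wild type and to 4.37% and 8.45% in the pair labelled Neil3-/-. At 1.5-fold under TMM, an alternative chosen after seeing the data, 7 members were higher and 1 lower in wild type, beside 12.7% and 14.4% of all genes. In the pair labelled Neil3-/- 3 were higher and 2 lower, beside 14.8% and 17.5%. Under TMM, 27 of 36 members lay above 0 in wild type and 29 of 36 in the pair labelled Neil3-/-. Ifit2, Ifit3, Parp9, Dtx3l, Gbp2 and Cxcl9 changed sign in wild type, and Mx2, Ifi27l2a, Ifi35 and Ifi44 in the pair labelled Neil3-/-.

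**Figure D2:**
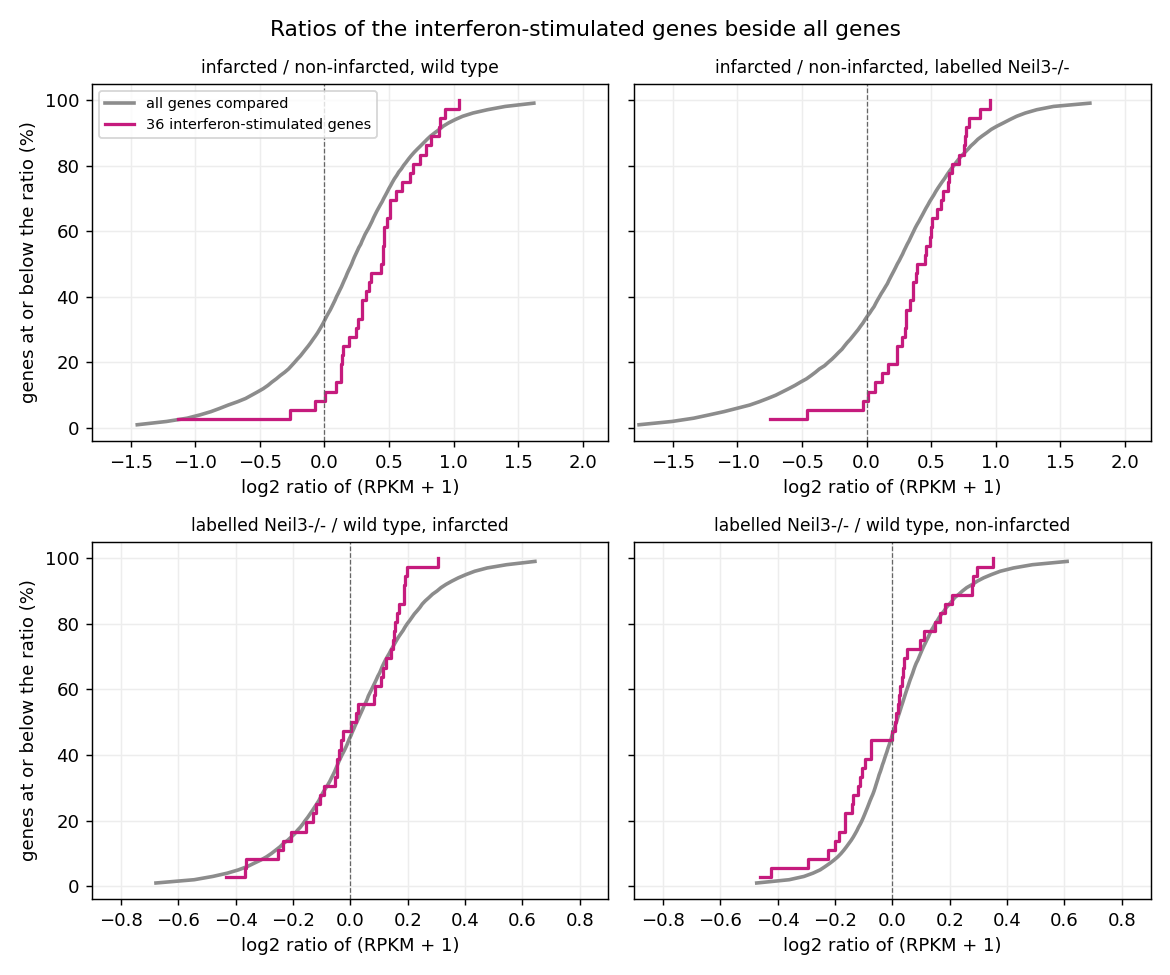
Cumulative share of genes (percent) at or below each log2 ratio of (RPKM + 1), for the 36 interferon-stimulated genes (pink steps) and all genes compared (grey), in 4 comparisons; the grey curves run from the 1st to the 99th percentile. In the infarct comparisons the pink steps lie to the right of the grey curve through the middle, with medians of 0.44 and 0.42 against 0.21 and 0.24. They cross it toward the top and end to its left. The largest member ratio is 1.04 in wild type and 0.96 in the pair labelled Neil3-/-, where 94.6% and 90.6% of all genes lie lower. In the genotype comparisons the medians are within 0.02 of each other.

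Among the transcription factors, all 4 had a higher level in the infarct, in each pair and under each scaling. Irf7, which drives the second wave of interferon production, stood at 12.1 then 22.1 RPKM in the wild-type pair, 1.83-fold higher (1.61 to 2.10). In the pair labelled Neil3-/- it was at 13.5 then 17 RPKM, 1.26-fold higher (1.10 to 1.44). Irf7 was thus highest in the wild-type infarcted library, and the other 3 libraries lay between 12.1 and 17 RPKM. Irf1, a factor induced by interferon gamma and by NF-kappa-B, was at 9.58 then 15.1 RPKM in the wild-type pair and at 10.4 then 17.1 RPKM in the pair labelled Neil3-/-, higher by 1.57-fold (1.37 to 1.82) and 1.64-fold (1.43 to 1.88). Irf9, the DNA-binding partner of Stat2, was at 12.7 then 17.7 RPKM in the wild-type pair and at 12.0 then 17.4 RPKM in the pair labelled Neil3-/-. Stat2 was higher by 1.4-fold (1.26 to 1.55) and 1.32-fold (1.19 to 1.46). For all 4 factors both infarcted libraries lay above both non-infarcted ones.

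The 4 nucleic acid sensors were the role with the highest median, 0.69 and 0.78 on the log2 scale in the wild-type pair and the pair labelled Neil3-/-. Zbp1, a sensor of left-handed nucleic acid that can start necroptosis, was at 4.05 then 8.39 RPKM in the wild-type pair and at 3.73 then 8.18 RPKM in the pair labelled Neil3-/-, higher by 2.07-fold (1.67 to 2.58) and 2.19-fold (1.75 to 2.76). Dhx58 (LGP2), a helicase that modulates the RNA sensors, was at 3.13 then 6.61 RPKM and at 3.23 then 6.34 RPKM, higher by 2.12-fold (1.69 to 2.66) and 1.96-fold (1.57 to 2.47). Both genes thus had nearly the same pair of levels in each genotype. Ddx58 (RIG-I), a sensor of viral RNA ends, was at 8.45 then 12.4 RPKM in the wild-type pair and at 7.97 then 14.3 RPKM in the pair labelled Neil3-/-. Its fold was 1.47 (1.33 to 1.62) and 1.79 (1.62 to 1.98). Ifih1 (MDA5), which senses long double-stranded RNA, was higher by 1.27-fold (1.11 to 1.46) and 1.62-fold (1.41 to 1.86).

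The 11 antiviral effectors had medians of 0.55 and 0.51, with 5 members at least 1.5-fold higher in each genotype, and their spread was wide. Bst2 (tetherin), which holds budding virions at the cell surface, was at 20.5 then 43.3 RPKM in the wild-type pair, 2.11-fold higher (1.83 to 2.45). The pair labelled Neil3-/- had 21.1 then 33.4 RPKM, 1.58-fold higher (1.36 to 1.84). The non-infarcted libraries thus started from a like level, and the wild-type infarcted library reached the highest. Of all genes compared, 5.43% had a higher log2 ratio than Bst2 in wild type and 22.0% in the pair labelled Neil3-/-.

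The oligoadenylate synthetases make the messenger that activates RNase L on sensing double-stranded RNA. Oas1a was at 1.78 then 4.29 RPKM in the wild-type pair and at 2.41 then 4.77 RPKM in the pair labelled Neil3-/-, higher by 2.42-fold (1.74 to 3.41) and 1.98-fold (1.48 to 2.68). Oas3 was at 1.68 then 3.62 RPKM and at 2.42 then 3.69 RPKM, higher by 2.16-fold (1.74 to 2.69) and 1.53-fold (1.26 to 1.86). Both had their lowest level in the wild-type non-infarcted library. Oasl2, a relative with ubiquitin-like domains, was at 13.0 then 21.5 RPKM and at 11.3 then 18.1 RPKM, higher by 1.65-fold (1.5 to 1.83) and 1.60-fold (1.44 to 1.78). Oas2 was higher by 1.54-fold (1.35 to 1.75) and 1.36-fold (1.19 to 1.55).

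The dynamin-like GTPase Mx1 blocks viral polymerases in the nucleus, and its gene carries a deletion in C57BL/6 mice. It was at 1.21 then 2.68 RPKM in the wild-type pair and at 1.48 then 3.55 RPKM in the pair labelled Neil3-/-, higher by 2.22-fold (1.63 to 3.06) and 2.40-fold (1.82 to 3.21). Its neighbour Mx2 was at 1.58 then 1.15 RPKM and at 1.30 then 1.31 RPKM, from 45 to 58 reads, and both intervals of its ratio held 1, with the ratio of the second pair below 1 under TMM. Rsad2 (viperin), an antiviral radical enzyme, was at 7.82 then 11.1 RPKM and at 7.19 then 11.3 RPKM, higher by 1.42-fold (1.26 to 1.60) and 1.57-fold (1.39 to 1.78). The neighbours Ifit1, Ifit2 and Ifit3 code for proteins that bind foreign RNA. Their ratios in wild type were 1.29-fold (1.09 to 1.52), 1.01-fold (0.885 to 1.14) and 1.11-fold (0.916 to 1.35), the last and the middle one below 1 under TMM. In the pair labelled Neil3-/- they were higher by 1.30-fold (1.11 to 1.53), 1.35-fold (1.18 to 1.54) and 1.51-fold (1.23 to 1.85).

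Isg15, a ubiquitin-like protein joined to targets and also secreted, was at 11.7 then 17.1 RPKM in the wild-type pair and at 8.24 then 14.2 RPKM in the pair labelled Neil3-/-, higher by 1.46-fold (1.17 to 1.82) and 1.72-fold (1.33 to 2.24). The library labelled Neil3-/- was the lower one in each region, with an interval that held 1 in infarcted tissue (0.991 to 1.47). Usp18, which removes Isg15 and restrains the receptor, was higher by 1.47-fold (1.15 to 1.88) and 1.22-fold (0.962 to 1.54). Parp9 and Dtx3l, an ADP-ribosyltransferase and the ubiquitin ligase it works with, and Parp14 are neighbours in the genome and had like levels, between 8.28 and 11.9 RPKM in all 4 libraries. Their infarct ratios were 1.12-fold, 1.11-fold and 1.25-fold in wild type, with Parp9 and Dtx3l below 1 under TMM, and 1.23-fold, 1.26-fold and 1.41-fold in the pair labelled Neil3-/-. The wild-type interval of Parp9 held 1.

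The 5 interferon-inducible GTPases, which attack the vacuoles of intracellular pathogens and respond strongly to interferon gamma, had the lowest median in wild type, 0.13, and none was 1.5-fold higher in either genotype. Iigp1 (Irga6) stood at 17.8 then 7.54 RPKM in the wild-type pair, from 833 and 410 reads, 2.35-fold lower (2.09 to 2.66). The pair labelled Neil3-/- had 15.3 then 8.74 RPKM, 1.75-fold lower (1.56 to 1.97). It was the lowest of the 36 ratios in both genotypes and lay below 0 under TMM and median-ratio scaling as well. Of all genes compared, 2.46% had a lower ratio in wild type and 9.35% in the pair labelled Neil3-/-. Its relative Igtp (Irgm3) was at 6.64 then 6.26 RPKM in the wild-type pair and at 8.27 then 5.75 RPKM in the pair labelled Neil3-/-, 1.06-fold (0.872 to 1.29) and 1.44-fold (1.19 to 1.74) lower. Irgm1 went the other way, higher by 1.41-fold (1.24 to 1.60) and 1.31-fold (1.15 to 1.49). Gbp2 and Gbp3, guanylate-binding proteins, lay between 1.10-fold and 1.25-fold higher. In wild type the interval of Gbp2 held 1, and its ratio was below 1 under TMM.

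Cxcl9 and Cxcl10 attract T cells and NK cells through Cxcr3. Cxcl10 was at 4.93 then 7.30 RPKM in the wild-type pair and at 4.48 then 8.22 RPKM in the pair labelled Neil3-/-, higher by 1.48-fold (1.11 to 1.99) and 1.84-fold (1.37 to 2.48). Cxcl9, which depends more on interferon gamma, was at 1.16 then 1.30 RPKM and at 1.61 then 1.57 RPKM, and both intervals of its ratio held 1, with that of wild type below 1 under TMM. Of the remaining members, Rtp4, a Golgi chaperone of receptors that also binds viral RNA, was at 8.07 then 13.4 RPKM and at 9.48 then 14.3 RPKM, higher by 1.66-fold (1.39 to 1.99) and 1.5-fold (1.27 to 1.78). Ifi35, Ifi44, Xaf1 and Ifi27l2a lay between 1.05-fold and 1.56-fold higher. The interval held 1 for Ifi44 in both pairs and for Xaf1 in wild type. It also held 1 for Ifi35 and Ifi27l2a in the pair labelled Neil3-/-. Of these, Ifi27l2a, Ifi35 and Ifi44 lay below 1 under TMM in the pair labelled Neil3-/-.

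**Figure D3:**
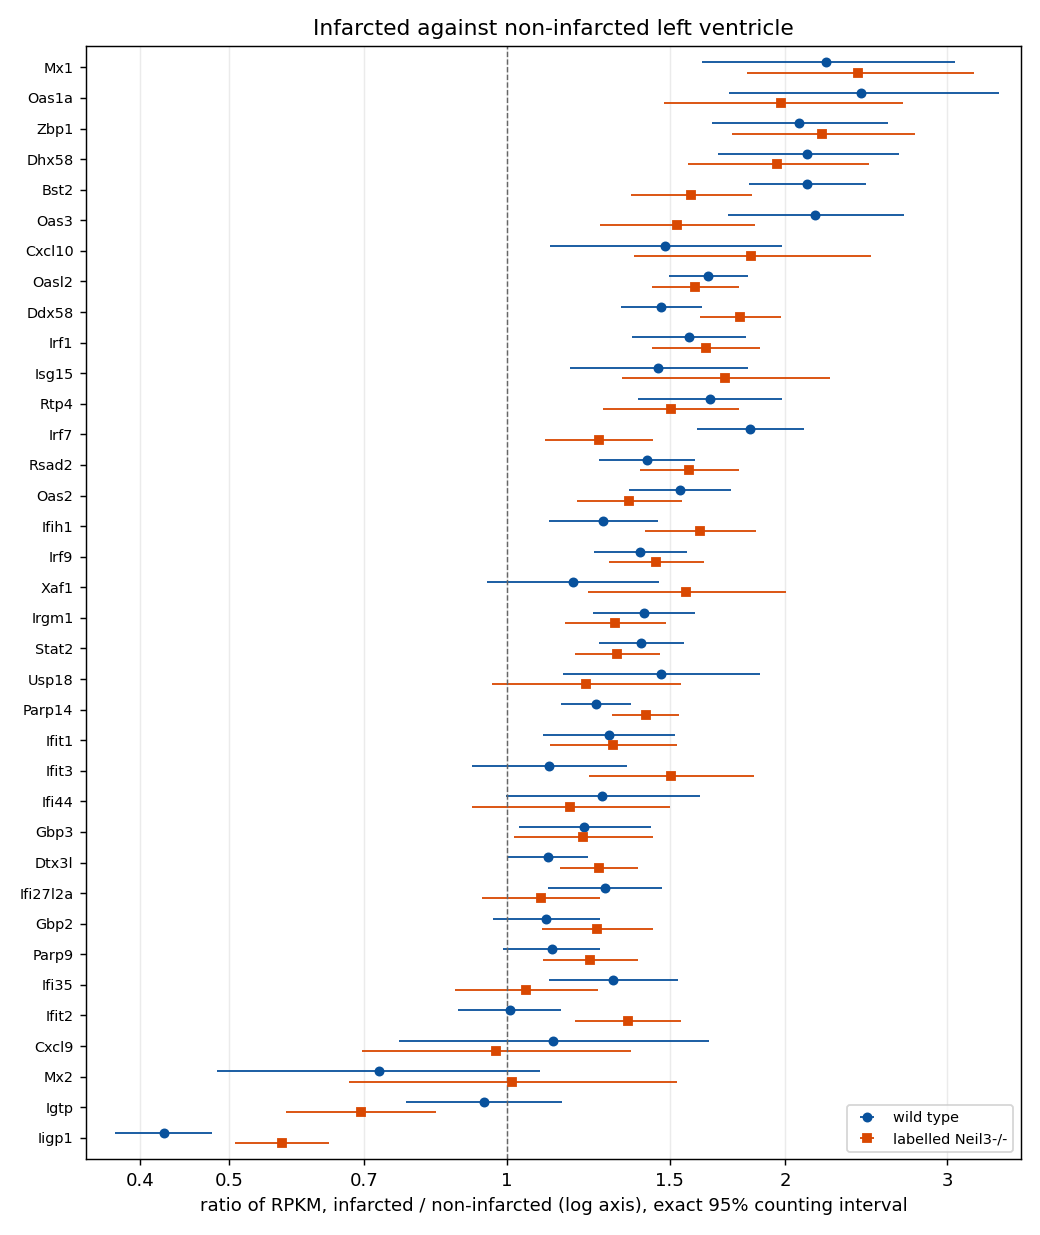
Ratio of RPKM in infarcted over non-infarcted tissue (log axis) for each of the 36 genes, in wild type (blue circles) and in the pair labelled Neil3-/- (orange squares), with exact 95% counting intervals. Mx1, Oas1a, Zbp1, Dhx58, Bst2 and Oas3 lie at 1.53-fold to 2.42-fold, and Iigp1 lies 2.35-fold and 1.75-fold below 1.

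Other genes of the pathway were read from lists set by their role in it. None of 9 interferon ligand genes (Ifna1, Ifna2, Ifna4, Ifna5, Ifnb1, Ifne, Ifng, Il28a and Il28b) was listed in any library, by symbol or by Entrez identifier. The annotation behind the tables is not given, so a gene without reads and a gene outside the annotation cannot be told apart here. Of the other 29 genes (receptors, kinases, sensing pathway and restraint), 11 were at least 1.5-fold higher and 1 lower in infarcted wild-type tissue, beside 21.6% and 9.56% of all genes, with a median log2 ratio of 0.44 beside 0.21. In the pair labelled Neil3-/-, 14 were higher and 1 lower, beside 25% and 12.4% of all genes, with a median of 0.57 beside 0.24. Both receptor chains of type I interferon had a higher level in the infarct, Ifnar1 1.76-fold (1.65 to 1.89) and 1.97-fold (1.84 to 2.11), and Ifnar2 1.56-fold and 1.61-fold. Ifngr1, a chain of the interferon gamma receptor, was 1.44-fold and 1.49-fold higher. The other chain, Ifngr2, was lower by 1.21-fold (1.16 to 1.27) and 1.42-fold (1.35 to 1.49). Of the chains of the type III receptor, Il10rb was lower by 1.14-fold (1.07 to 1.23) and 1.21-fold (1.13 to 1.29). Ifnlr1 was lower by 1.24-fold (0.889 to 1.72) and 1.65-fold (1.22 to 2.25). Its wild-type interval, from 79 and 74 reads, held 1. Ifngr2, Il10rb and Ifnlr1 were named after their values were seen.

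In the sensing pathway, Tmem173 (STING), the adaptor of the cytosolic DNA sensor, was at 9.86 then 21.3 RPKM in the wild-type pair and at 10.2 then 28.4 RPKM in the pair labelled Neil3-/-, higher by 2.16-fold (1.90 to 2.46) and 2.79-fold (2.47 to 3.16). Irf5, a factor of macrophages downstream of Toll-like receptors, was higher by 2.80-fold (2.40 to 3.27) and 2.34-fold (2.06 to 2.67). Tlr7, an endosomal sensor of single-stranded RNA, was 2.08-fold and 2.50-fold higher. The 1 gene at least 1.5-fold lower in each pair, named after its values were seen, was Mavs, the mitochondrial adaptor of RIG-I and MDA5, lower by 1.64-fold (1.52 to 1.78) and 2.07-fold (1.90 to 2.25). Socs3, an inhibitor of cytokine receptor signalling that interleukin 6 also induces, was higher by 2.52-fold (2.28 to 2.78) and 3.10-fold (2.80 to 3.43).

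Markers of cell types moved in the same comparison. In bulk tissue, fewer cells of a type and less RNA per cell cannot be told apart. All 7 monocyte and macrophage markers were at least 1.5-fold higher in the infarct in each pair, with a summed level of 143 then 406 RPKM in the wild-type pair and 211 then 522 RPKM in the pair labelled Neil3-/-. Of 6 neutrophil markers, 5 could be compared and were all at least 2-fold higher, with sums of 27.7 then 210 RPKM in the wild-type pair and 24.5 then 246 RPKM in the pair labelled Neil3-/-. The 6 cardiomyocyte markers were all at least 1.5-fold lower, and their sums were 15641 then 6984 RPKM in wild type and 14474 then 4406 RPKM in the pair labelled Neil3-/-. Endothelial markers summed to 275 then 449 RPKM and to 266 then 433 RPKM, and fibroblast markers to 1166 then 1762 RPKM and to 1524 then 2708 RPKM. Of 5 endothelial markers 3 were at least 1.5-fold higher in each pair, and of 5 fibroblast markers 3 in wild type and 4 in the other pair, while Kdr and Dcn had a lower level in the infarct in both pairs. All B cell markers compared, 3 in wild type and 2 in the other pair, were at least 1.5-fold higher, from sums of 1.79 then 6.75 RPKM and 2.62 then 7.26 RPKM. No T cell marker (of 6) and no NK cell marker (of 5) reached 1 RPKM in any library, with sums of at most 2.97 and 1.14 RPKM. Of 5 markers of plasmacytoid dendritic cells, 3 could be compared. In each pair 1 of them (Bst2) was at least 1.5-fold higher and 1 (Pacsin1) lower. Pacsin1 was at 1.72 then 0.354 RPKM in the wild-type pair and at 2.36 then 0.443 RPKM in the pair labelled Neil3-/-. Tcf4 was 1.21-fold and 1.20-fold higher. The defining marker of these cells, Siglech, was at most at 0.504 RPKM, and Bst2 stands both in that marker list and among the members. The part of these cell types in the ratios of the members was not tested.

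The second comparison set the pair labelled Neil3-/- against wild type, within each region. The median of the members lay near that of all genes, and no member was 1.5-fold apart. In infarcted tissue 19 of 36 members lay above 0, with a median log2 ratio of 0.01 beside 0.02 for all genes. In non-infarcted tissue 19 of 36 lay above 0 as well, with a median of 0.01 beside 0.01. Of all genes, between 45% and 46% lay below 0 in infarcted and between 46% and 47% in non-infarcted tissue. The background at 1.5-fold, beside 0 members in each direction, was 1.51% higher and 1.55% lower of all genes in infarcted tissue and 1.14% and 0.613% in non-infarcted tissue. The sign changed with the scaling for Oas3, Rsad2 and Gbp2 in infarcted and for Oas2 and Parp9 in non-infarcted tissue. At 2-fold the shares of all genes were 0.249% and 0.241% in infarcted, and 0.254% and 0.188% in non-infarcted tissue. These comparisons share libraries with the infarct comparisons and are not independent of them.

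In infarcted tissue Ifi35 had the largest fold between genotypes. Ifi35, a leucine-zipper protein that can be released as a danger signal, was at 16.4 RPKM in the wild-type library and 11.9 RPKM in the library labelled Neil3-/-, 1.38-fold lower (1.18 to 1.61), while the non-infarcted libraries were at 12.6 and 11.3 RPKM. Bst2 was 1.30-fold lower (1.15 to 1.46) and Irf7 1.30-fold lower (1.17 to 1.46). Oasl2 was lower in both regions, by 1.19-fold (1.09 to 1.29) in infarcted and 1.15-fold (1.02 to 1.29) in non-infarcted tissue. Mx1 was at the other end, 1.32-fold higher (1.07 to 1.65) from 149 and 208 reads. Of the sensors, Ddx58 was 1.15-fold higher (1.06 to 1.25) and Ifih1 1.13-fold higher (1.01 to 1.27).

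In non-infarcted tissue Isg15 was 1.42-fold lower in the library labelled Neil3-/- (1.08 to 1.88), from 132 and 89 reads. Xaf1, an antagonist of apoptosis inhibitors, was at 3.92 RPKM in the wild-type library and 2.67 RPKM in the library labelled Neil3-/-, 1.47-fold lower (1.13 to 1.91). Oas3 was 1.44-fold higher (1.13 to 1.84). In infarcted tissue the intervals of Isg15, Xaf1 and Oas3 held 1. Of the 29 other pathway genes, 1 was at least 1.5-fold higher and 0 lower in each region. Cell type markers differed between genotypes too: 3 of 7 monocyte and macrophage markers were at least 1.5-fold higher in the non-infarcted library labelled Neil3-/-, and 4 of 6 cardiomyocyte markers were at least 1.5-fold lower in the infarcted one. Of 5 fibroblast markers, 2 (Col1a1 and Col3a1, 1.60-fold and 1.58-fold) were higher in the infarcted library labelled Neil3-/-, and 1 neutrophil marker (S100a8) was at least 1.5-fold lower in the non-infarcted one. Their part in the values of the members was not tested.

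**Figure D4:**
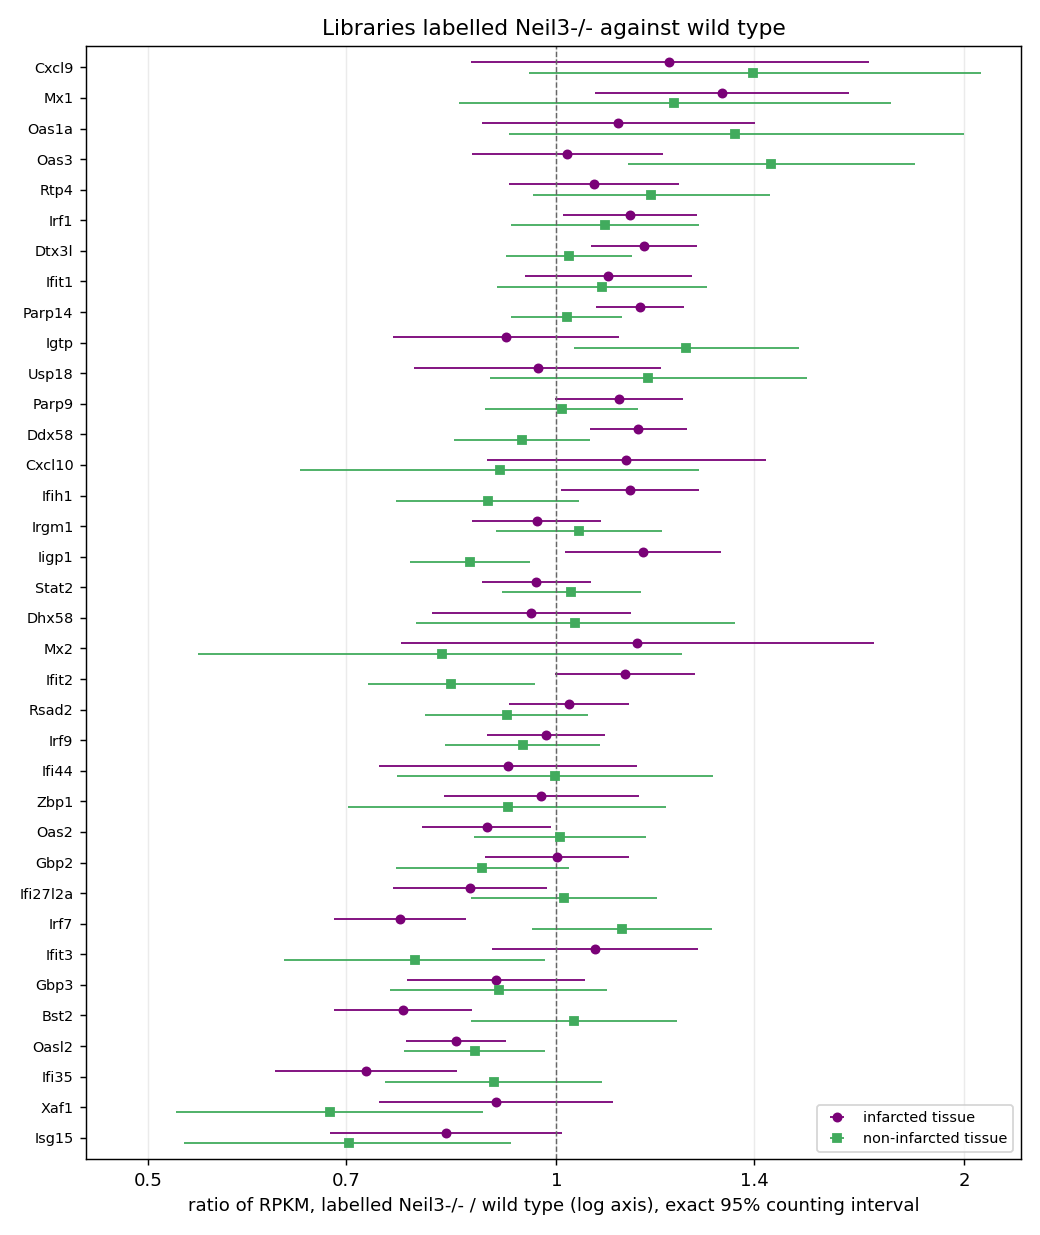
Ratio of RPKM in the pair labelled Neil3-/- over wild type (log axis) for each of the 36 genes, in infarcted tissue (purple circles) and non-infarcted tissue (green squares), with exact 95% counting intervals. Ratios lie on both sides of 1 in both regions and none passes 1.5-fold in either direction; Isg15 and Xaf1 lie 1.42-fold and 1.47-fold below 1 in non-infarcted tissue.

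The third comparison was whether the infarct ratio differed between genotypes, from the 4 read numbers of a gene and with the exact conditional interval of their odds ratio. The ratio was larger in the pair labelled Neil3-/- for 19 members and larger in wild type for 17. No member differed by 1.5-fold on the log2 scale of (RPKM + 1), beside 1.12% and 1.55% of all genes in the directions higher and lower; at 2-fold these shares were 0.299% and 0.228%. Over the 36 members the infarct ratios of both genotypes, which use separate libraries, had a Pearson correlation of 0.803, and of 0.694 without Iigp1, below the 0.932 over all genes compared in both. These correlations are descriptions across genes that share their library totals. They are also not of like range. The standard deviation of the infarct ratios was 0.398 in wild type and 0.347 in the pair labelled Neil3-/- for the members, against 0.594 and 0.685 for all genes. A narrower range by itself lowers a correlation.

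Irf7 had the largest difference toward wild type, with an infarct ratio 1.46 times that of the pair labelled Neil3-/- (1.21 to 1.77). Oas3 followed at 1.41 times (1.05 to 1.90), Igtp at 1.36 times (1.03 to 1.78) and Bst2 at 1.34 times (1.08 to 1.65); Igtp had the lower level in infarcted tissue in each pair. In the other direction Ifit2 and Ifit3 had an infarct ratio 1.34 times (1.12 to 1.62) and 1.36 times (1.02 to 1.8) that of wild type. Ifih1, Ddx58 and Parp14 were at 1.27, 1.22 and 1.13 times that of wild type, also with intervals clear of 1. That of Parp14 began at 1.003, too close to 1 to hold under another scaling. The interval was clear of 1 for 6 members in this direction, Iigp1 included, and for 4 toward wild type. These counts rest on the deposited totals and on counting error only. The share of all genes with such an interval was not computed, so the counts have no background beside them. Iigp1, which was lower in infarcted tissue in both genotypes, had a ratio 1.34 times (1.13 to 1.59) that of wild type. Its levels were thus closer together in the pair labelled Neil3-/-. Ifit1, the neighbour of Ifit2 and Ifit3, was at 1.01 times (0.803 to 1.27). Its interval overlaps those of Ifit2 and Ifit3, so a different size is not shown. In non-infarcted tissue Ifit2 was 1.20-fold lower (1.04 to 1.38) and Ifit3 1.27-fold lower (1.02 to 1.59) in the library labelled Neil3-/-. Between the infarcted libraries the intervals of Ifit2 and Ifit3 held 1.

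For some members the reads covered less of the gene model than the read number would give. The deposited coverage, in percent, was set beside the median of genes whose length and read number lay within 0.3 log2 units. Oas1a was covered to between 37.7% and 46.1%, where like genes had medians between 62.5% and 88.1%. Ifit3 was covered to between 58.0% and 61.8%, against 86.8% to 93.7%, and Xaf1 to between 48.4% and 58.9%, against 72.0% to 87.2%. Mx1 was covered to between 38.2% and 61.2%, against 50.8% to 84.5%. Oas1a and Ifit3 have close relatives next to them in the genome, and the tables count uniquely assigned reads only, so their levels are uncertain. In a GENCODE annotation of build GRCm38, 14 of the 36 members overlap another gene and 8 of them a coding gene, among them Parp9 and Dtx3l on opposite strands, Igtp with Irgm2 and Cxcl10 with Art3. Whether counting used the strand is not given, so reads in such overlaps cannot be assigned with certainty.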

How the data were processed

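The 36 members and the gene lists beside them were chosen with earlier results of these data known. Total RNA was isolated with TRIzol and sequenced on an Illumina instrument, per the labels. Per the file headers, the authors deposited for each library the count of uniquely assigned reads per gene, its length, its coverage in percent and its RPKM. The RPKM equal count over length and library total. The submitters' processing notes name build mm9; for the aligner, the counter and the annotation the sources used here give nothing. Where a library does not list a gene, 0 reads were assumed.

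Log2 ratios of (RPKM + 1) were computed wherever either library reached 1 RPKM, and members at least 2-fold or 1.5-fold apart were counted beside all genes. With 1 library per group there was no test. Fold values are ratios of RPKM with exact Clopper-Pearson 95% intervals, and infarct ratios were compared by the exact conditional odds ratio (scipy 1.17.1). The code was tested on simulated data. Alternatives were a pseudocount of 0.1, a minimum of 5 RPKM, median-ratio scaling, TMM scaling (edgeR 4.0.16), and totals without ribosomal and small RNA. Every member could be named. Values in all libraries are given for members at least 1.5-fold apart in any comparison and for the 5 with the highest mean RPKM; others were added where a role or a genotype difference is described. Lists hold Ifnlr1 under its current symbol (fixed as Il28ra), and Emr1 and Adgre1, which are 1 gene, once. Of 29 promoter windows, 26 had their transcribed end within a GENCODE transcript of the gene. The values of 1 pathway gene are not reported here.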

Additional observations from a re-analysis of the deposited data

Results flagged for a closer look

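Iigp1 is the member whose genotype ratios lay on opposite sides of 1 in the 2 regions with both counting intervals clear of 1. It was 1.16-fold higher (1.01 to 1.32) in the library labelled Neil3-/- in infarcted tissue and 1.16-fold lower (1.05 to 1.28) in non-infarcted tissue. These intervals use the deposited totals. Under TMM scaling the log2 ratio in infarcted tissue fell from 0.19 to 0.16, and under median-ratio scaling to 0.15. A shift of this size takes the lower end of that interval below 1. With 1 library per group the difference was not tested against the spread between animals.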

How the results depend on the processing

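The count of members at least 2-fold higher in infarcted tissue was 1 in wild type and became 6 with a pseudocount of 0.1 RPKM, and 0 under median-ratio and under TMM scaling; in the pair labelled Neil3-/- it was 0 and became 2 with that pseudocount, beside 10.1% and 12.6% of all genes. At 1.5-fold it was 10 and 11, with 1 lower member in the pair labelled Neil3-/-; at 1.5-fold with TMM scaling it was 7 and 3, with 2 lower members in the pair labelled Neil3-/-. The members' median in the pair labelled Neil3-/- was 0.42 and became 0.19 under median-ratio scaling. The cause of the scaling shift was not tested. In the genotype comparisons the counts of members at least 2-fold or 1.5-fold apart did not change under any of these settings. The counts of members above 0 did. In infarcted tissue 19 became 16 under median-ratio and 17 under TMM scaling. In non-infarcted tissue 19 became 18 and 17. The 19 members with the larger infarct ratio in the pair labelled Neil3-/- became 18 under median-ratio scaling. No member at least 2-fold apart as deposited changed sign under these settings. No paired analysis was possible because each group has 1 library. For the same reason no library could be left out. Depth limits the members with few reads, of which Mx2 and Cxcl9 had 45 to 83 reads in a library. It also limits the infarct ratios of Oas1a, Mx1 and Cxcl10. In the non-infarcted libraries, wild type first, these had 50 and 65, 58 and 68, and 78 and 68 reads.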
